A study of Arabidopsis thaliana with 21 samples.

Results

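Adding ATP to PAP feeding changed transcript levels in excised Arabidopsis thaliana leaves, and the comparison described here is PAP + ATP against PAP over all genes. It used 6 of the 21 libraries: 3 of leaves fed PAP + ATP (libraries 16, 17 and 18, by their column names) and 3 of leaves fed PAP alone (libraries 7, 8 and 9). Every leaf came from a 35-day-old F1 hybrid of the Col-0 and Ler strains and was fed through its cut petiole, so all groups share excision and feeding with the same buffer. The PAP + ATP leaves received 100 µM PAP and 1 mM ATP and the PAP leaves 100 µM PAP. The 5 further groups of 3 were fed ATP (1 mM), PAP + ATP + LiCl, PAP + LiCl, LiCl (100 mM wherever given), or buffer alone (control). The PAP dose is uncertain, because the treatment protocol speaks of 1 mM or 100 mM PAP, and no feeding time is stated. No leaves received ATP with LiCl but without PAP. Nothing in the labels says whether replicates were separate plants, so p-values measure the spread between libraries, which may be partly technical.

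PAP, a phosphoadenosine phosphate, is a by-product of sulfation reactions that the chloroplast and mitochondrial phosphatase SAL1 breaks down, and when it accumulates it inhibits the XRN family of exoribonucleases. ATP outside plant cells is a damage signal: it is perceived by lectin receptor kinases at the plasma membrane, among them LecRK-I.9, and is followed by calcium influx, a burst of reactive oxygen and activation of mitogen-activated protein kinases. Genes for ribosomal proteins and for proteins that assemble ribosomes are commonly transcribed in step, and so are the replication-dependent histone genes of dividing cells. Genes of the NBS-LRR class encode intracellular immune receptors, of which one group carries a TIR domain and another a coiled coil (CC) at its amino terminus.

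The PAP + ATP libraries held 19190821 to 22744596 reads assigned to genes and the PAP libraries 24073817 to 27155547, so that 1 read was worth 0.0368 to 0.0521 CPM, the deposited read count scaled to the library's total. RBCS1A, the main small subunit of Rubisco, stood at 3116 to 7150 CPM in PAP + ATP leaves and 5647 to 11110 CPM in PAP leaves. Of 6 root markers only 2, SCR and NRT2:1, were in the deposited data, and NRT2:1 carries no values for PAP leaves. Their sum was 2.02 to 6.36 CPM in PAP + ATP leaves. In PAP leaves SCR alone had 2.50 to 6.11 CPM, so these ranges are not of the same genes. The libraries of a group were uneven. The median gene varied by an SD of 0.32 on the log2 scale among the PAP + ATP libraries and 0.37 among the PAP libraries, against 0.25 to 0.26 in the 3 groups with LiCl. PAP library 8 had summed markers of epidermis and trichomes, guard cells and myrosin cells of 1382, 112 and 5434 CPM, whereas PAP library 9 had 476, 21.5 and 476 CPM. In PAP + ATP libraries these sums were 778 to 841, 22.2 to 52.1 and 1062 to 2140 CPM, within the range of the PAP libraries. The epidermis sums of PAP leaves leave out PDF1, which carries no values there.

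With limma fitted to log2(CPM + 0.5) of all 21 libraries and Benjamini-Hochberg adjustment over all genes, 606 genes were higher and 606 lower in PAP + ATP than in PAP leaves at an adjusted p under 0.05, of 17673 tested (3.43% each way, 6.86% in all). A total of 452 of the rises and 351 of the falls exceeded 2-fold, and the median over all genes was -0.03 on the log2 scale. Of the 1212 genes, 580 rises and 594 falls had no overlap between the 3 and 3 libraries; without regard to the test, 12.5% of all genes tested lay above and 12.3% below without overlap. These counts rest on the spread pooled over all 21 libraries, which includes the more even LiCl groups. A fit of the 6 libraries alone called 6 genes, with 3237 at an unadjusted p under 0.05, and a fit of the 12 libraries without LiCl called 10. They rest on single libraries too, since the count was 98 without library 16, 189 without library 17, 2028 without library 18, 263 without library 7 and 212 without library 8, and the falls numbered 364 without library 9. Calls that stayed when each of the 6 libraries was left out in turn numbered 73, of which 56 were rises and 17 falls.

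The largest changes were ranked among called genes with a mean of at least 5 CPM over the 6 libraries and no overlap. Of these the 12 largest rises lay between 2.98 and 3.83 on the log2 scale, and most are described here. AT5G11140, called with a rise of 3.91, did not meet these conditions. PP2-B13, which encodes an F-box protein with a phloem lectin domain (chromosome 1, 21056099 to 21057577), had 42.1, 29.3 and 8.29 CPM in PAP + ATP leaves, against 0.782, 0.291 and 3.31 CPM in PAP leaves. The groups did not overlap, although library 18 was nearer to PAP than the other 2, and the difference was 3.83 ± 0.64 (log2 fold change ± SE, limma adjusted p = 0.00548). GSTU11, a glutathione S-transferase of the tau class (chromosome 1, 26337481 to 26338818), had 42.7, 31.8 and 10.6 CPM with PAP + ATP, against 1.92, 0.415 and 3.28 CPM with PAP, which gave 3.62 ± 0.63 (limma adjusted p = 0.00677). BT2, which encodes a BTB and TAZ domain protein that responds to nitrate and sugar (chromosome 3, 17907767 to 17910738), reached 37.6, 29.5 and 20.4 CPM, against 2.23, 1.16 and 5.63 CPM with PAP. All the PAP + ATP values of BT2 were above the highest PAP value, with a difference of 3.25 ± 0.41 (limma adjusted p = 0.00171). PHI-1, a phosphate-induced gene, had 15.7, 33.8 and 21.99 CPM in PAP + ATP leaves and 0.430, 3.32 and 2.47 CPM in PAP leaves. TCH4, a touch-induced xyloglucan endotransglucosylase that remodels cell walls, had 180, 314 and 236 CPM in PAP + ATP leaves and 25.6, 19.98 and 50.5 CPM in PAP leaves, again without overlap. The purine permease gene PUP18, of a family that carries purines and cytokinins across membranes, had 109, 114 and 66.8 CPM in PAP + ATP leaves and 7.82, 5.90 and 26.3 CPM in PAP leaves. CYP81F2, a cytochrome P450 of indole glucosinolate modification, differed by 3.00 ± 0.73, and the receptor-like kinase gene CCR4 by 3.24 ± 0.68 with PAP values of only 0.166 to 1.33 CPM.

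Under the same conditions the 12 largest falls lay between -3.07 and -1.94 on the log2 scale and included genes of nucleolar proteins. AT1G68570, annotated as a major facilitator superfamily transporter (chromosome 1, 25746697 to 25750291), had 4.27, 2.73 and 6.31 CPM in PAP + ATP leaves, against 37.5, 36.3 and 33.7 CPM in PAP leaves. Its PAP values were close together and well above the PAP + ATP values, and it fell by 2.94 ± 0.47 on the log2 scale (limma adjusted p = 0.00456). FIB2, fibrillarin, a methyltransferase of nucleolar RNA (chromosome 4, 13074090 to 13076432), had 0.923, 1.55 and 3.91 CPM with PAP + ATP and 8.80, 11.9 and 13.1 CPM with PAP. NAP57, the pseudouridine synthase subunit of nucleolar particles, had 2.90, 3.37 and 14.2 CPM in PAP + ATP leaves and 23.5, 25.6 and 20.7 CPM in PAP leaves. Library 18 was the highest PAP + ATP library for both nucleolar genes and stayed below every PAP library. SAHH2, an S-adenosylhomocysteine hydrolase of the methyl cycle, had 194, 341 and 1119 CPM in PAP + ATP leaves, against 1199 to 2065 CPM in PAP leaves, so that library 18 lay just under the lowest PAP library. The pirin gene PRN, which takes part in seed germination and light signalling, had 21.9, 18.6 and 18.8 CPM in PAP + ATP leaves and 103, 122 and 63.7 CPM in PAP leaves. FH3, an actin-nucleating formin, had 0.0879 to 0.592 CPM in PAP + ATP leaves and a wide 1.66 to 23.3 CPM in PAP leaves, with a fitted difference of -3.07 ± 0.79 (limma adjusted p = 0.0377). Values this low bear few reads, and the added 0.5 CPM understates the size of such differences.

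**Figure D1:**
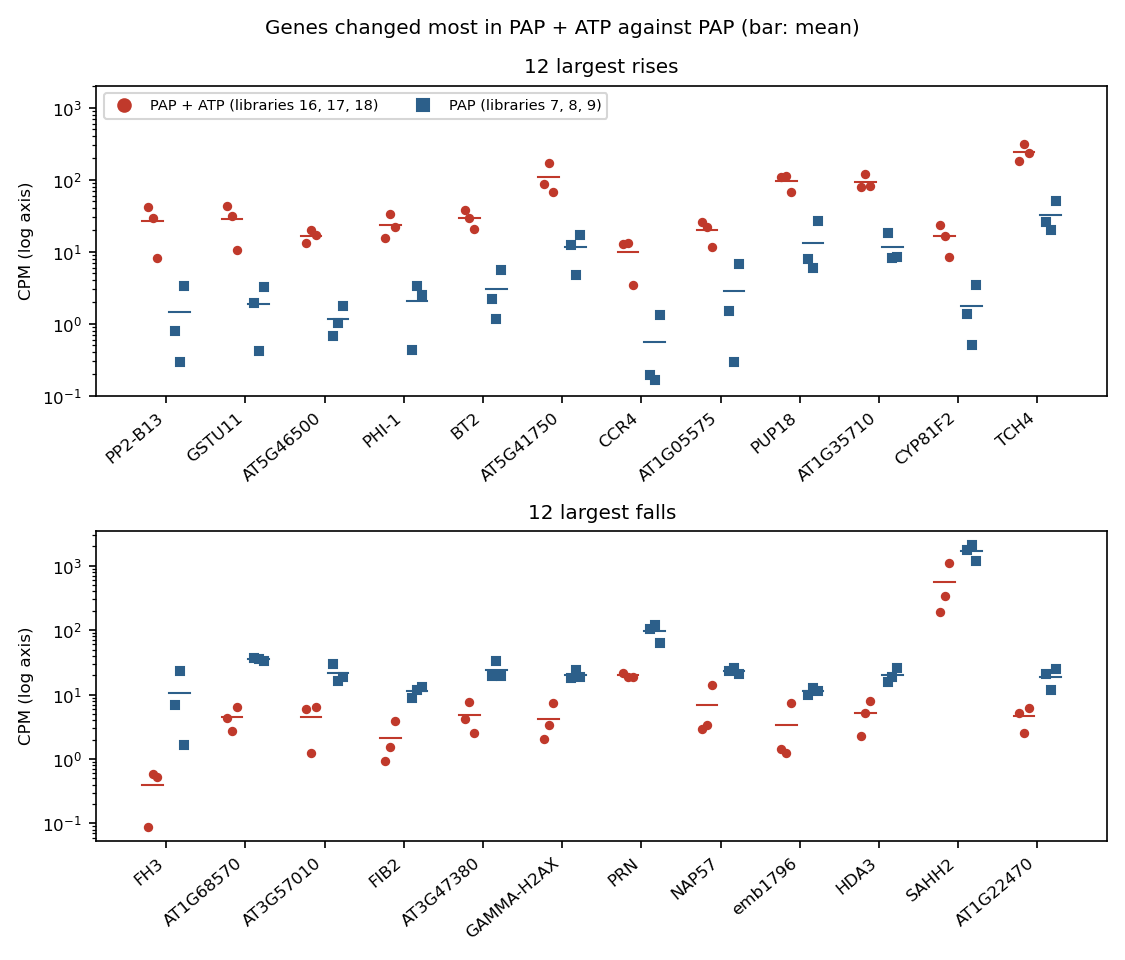
CPM on a log axis (y) of the 12 genes with the largest rises (top) and the 12 with the largest falls (bottom) along x, for the 3 PAP + ATP libraries (circles, left) and the 3 PAP libraries (squares, right), with bars at the means. By the rule that chose them the mean is at least 5 CPM and the groups do not overlap. Library 18, the rightmost circle, often lies nearest to the PAP values, as at 8.29 CPM for PP2-B13.

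Of the largest rises and falls, 4 genes were among the few called without the LiCl libraries or with the 6 libraries alone. BT2 and PRN were called in the fit of 12 libraries, AT1G68570 in that of 6, and AT5G46500, annotated as a protein of compound-triggered root growth variation and shown again among its chromosome 5 neighbours, in both. Of the 64 genes past the threshold that the naming rule chose, none changed sign under any setting tried. In the fits of 6 and of 12 libraries the sign could not change, because they return the same log2 fold change. Only 4 of the 64 stayed past the threshold in either of these fits. Those that stayed numbered 18 without library 16, 24 without library 17, 33 without library 7 and 25 without library 8. Without library 9 they were 50, and without library 18 they were 61.

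Genes for ribosomal proteins were lower as a body in PAP + ATP leaves. Of 286 tested, chosen by their annotated product after earlier results were known, 105 fell and 0 rose, against 3.43% of all genes each way. A total of 274 had a log2 fold change below 0, their median was -0.87 beside -0.03 for all genes, and 209 (73.1%) lay below the PAP libraries without overlap, beside 12.3% of all genes. Together they took 1.11, 1.79 and 1.26% of reads in PAP + ATP libraries and 2.20, 2.93 and 2.08% in PAP libraries. Control libraries had 1.98, 1.61 and 2.07%, below every PAP library, and PAP + ATP library 17 lay within the control range. ATP libraries had 1.57, 1.46 and 2.76%. The member with the smallest p, AT5G59240, of the S8e family of small-subunit proteins (chromosome 5, 23902462 to 23903767), had 0.0879, 0.273 and 0.313 CPM with PAP + ATP, against 1.99, 1.45 and 1.29 CPM with PAP. It lies near the floor, and of these 6 libraries only those of PAP reached 1 CPM. The median member tested stood far higher, at 29.85 CPM with PAP + ATP and 56.86 CPM with PAP. AT2G44860, which is in this list by its annotation to the L24e family (chromosome 2, 18500803 to 18502562), had 11.8, 12.0 and 19.5 CPM in PAP + ATP leaves. In PAP leaves it had 30.4, 34.3 and 33.3 CPM. Both sets of 3 were apart, with differences of -1.52 ± 0.26 (limma adjusted p = 0.00645) and -1.19 ± 0.21 (limma adjusted p = 0.00808). Many members have near-identical copies among which the authors' counting could divide reads, so single members are less certain than the body. The count of 105 was 1 without library 16, 15 without library 17, 23 without library 7, 7 without library 8, 49 without library 9 and 0 in either fit without LiCl libraries, while 177 were called by DESeq2.

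Because members of this family moved together, their promoters, taken as the 250 bases before and 50 after the annotated gene start in TAIR10.1, were searched on both strands for letters known from promoters of ribosomal protein genes. These were the telo-box (AAACCCTA) and the site II letters TGGGCC and TGGGCT, which differ from each other in the last letter, and all were chosen after the values were seen. The telo-box stood in 41.9% of the promoters of the 105 members that fell, in 36.7% of all 286, in 19.6% of all genes that fell, in 1.83% of those that rose and in 5.54% of the 17540 tested genes that have such a window. TGGGCC stood in 65.7% of the 105, in 55.6% of all 286, in 40.4% of genes that fell, in 12.8% of those that rose and in 19.9% of all. TGGGCT stood in 49.5% of the 105, in 47.6% of all 286, in 34.7% of genes that fell, in 12.8% of those that rose and in 17.3% of all. A match of letters is a description, not a shown binding site. The 2 members of smallest p are printed 5′ to 3′ to show where these letters lie, in capitals; AT5G59240 holds 1 telo-box on the opposite strand (chr5:23903718-23904017, minus strand) and AT2G44860 holds TGGGCC 3 times and 1 telo-box (chr2:18502513-18502812, minus strand).
AT5G59240: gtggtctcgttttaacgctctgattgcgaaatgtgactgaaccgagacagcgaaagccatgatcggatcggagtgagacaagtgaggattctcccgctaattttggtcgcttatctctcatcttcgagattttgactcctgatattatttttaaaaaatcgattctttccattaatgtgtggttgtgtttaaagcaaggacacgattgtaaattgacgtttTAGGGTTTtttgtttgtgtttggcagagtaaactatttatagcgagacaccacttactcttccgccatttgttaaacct
AT2G44860: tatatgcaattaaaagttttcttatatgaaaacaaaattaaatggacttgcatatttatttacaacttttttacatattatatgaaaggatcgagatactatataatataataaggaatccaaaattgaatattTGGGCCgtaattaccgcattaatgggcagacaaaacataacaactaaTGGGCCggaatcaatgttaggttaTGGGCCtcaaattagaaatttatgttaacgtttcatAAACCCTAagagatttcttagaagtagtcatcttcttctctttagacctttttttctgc

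Genes that build ribosomes were lower too. Of 12 listed members tested, 5 (41.7%) fell and 0 rose, beside 3.43% of all genes each way, with a median of -0.96 and 11 below 0. Beside FIB2, they were NOP56 and the NOP56-like AT5G27120, for proteins of nucleolar particles, SWA1, needed for processing of ribosomal RNA precursors, and the DEA(D/H)-box RNA helicase gene AT5G60990. NOP56 itself had 6.38, 8.70 and 24.7 CPM with PAP + ATP and 34.1, 48.4 and 35.0 CPM with PAP, a difference of -1.75 ± 0.47 (limma adjusted p = 0.0368). The pumilio gene PUM24 had a log2 fold change of -1.39 and nucleolin NUC-L1 one of -0.83, neither past the threshold. The count of 5 was 0 without library 16, library 17 or library 8 and in either fit without LiCl libraries, 1 without library 7, 2 without library 9 and 9 without library 18.

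Histone genes were the second family lower in PAP + ATP leaves. Of 44 tested, 26 (59.1%) fell and 0 rose, beside 3.43% of all genes each way. Their median was -0.98, 42 were below 0, and 32 (72.7%) lay below the PAP libraries without overlap, beside 12.3% of all genes. They took 0.0764, 0.0913 and 0.0923% of reads with PAP + ATP, against 0.128, 0.152 and 0.170% with PAP; control libraries had 0.118 to 0.149%. AT1G07820, annotated as a histone superfamily protein (chromosome 1, 2421089 to 2422066), had 8.97, 11.8 and 10.3 CPM in PAP + ATP leaves and 24.4, 35.1 and 31.9 CPM in PAP leaves. The libraries of each group were close together and the groups far apart, with a difference of -1.5 ± 0.21 (limma adjusted p = 0.00358). GAMMA-H2AX, the variant that is phosphorylated at DNA breaks, had 2.02, 3.37 and 7.35 CPM in PAP + ATP leaves and 17.8, 24.3 and 18.5 CPM in PAP leaves, a 4.83-fold lower fitted level. The H2B gene HTB2 had 5.32, 12.9 and 5.68 CPM in PAP + ATP leaves, against 23.6, 34.1 and 21.1 CPM in PAP leaves, without overlap. The H4 gene HIS4 had 6.55, 11.3 and 9.07 CPM in PAP + ATP leaves and 20.5, 28.99 and 23.9 CPM in PAP leaves. The count of 26 was 5 without library 16, 7 without library 8 and 0 in either fit without LiCl libraries, and lay between 19 and 22 without each of the other 4. In bulk leaf RNA, fewer cells of a kind and less of a transcript per cell cannot be told apart.

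The letters ACGTG were searched as the core of the abscisic acid response element. They also lie within other, longer motifs, so a match does not show a site of response to that hormone. They stood in the promoters of 61.5% of the 26 histone genes that fell and 47.7% of the 44 tested. Beside these the share was 28.2% of all genes, 23.1% of genes that fell and 30.1% of genes that rose. The octamer CGCGGATC known from plant histone promoters, chosen after the values were seen, stood in 23.1% of the 26, 20.5% of the 44 and 0.177% of all. The window of GAMMA-H2AX, the histone gene of next smallest p, holds neither ACGTG nor the octamer. The promoter of AT1G07820, the histone gene of smallest p, is shown (chr1:2422017-2422316, minus strand). Its ACGTG letters, which lie on the opposite strand as CACGT, are in capitals, and it does not hold the octamer.
AT1G07820: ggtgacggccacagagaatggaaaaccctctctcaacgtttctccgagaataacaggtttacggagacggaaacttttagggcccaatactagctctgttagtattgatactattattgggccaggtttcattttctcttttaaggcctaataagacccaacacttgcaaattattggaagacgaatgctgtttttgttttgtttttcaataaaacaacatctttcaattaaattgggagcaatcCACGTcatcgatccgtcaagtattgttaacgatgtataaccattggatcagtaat

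Resistance genes of the TIR-NBS-LRR class were higher as a family. Of 61 tested, 29 (47.5%) rose and 0 fell, beside 3.43% of all genes each way. The median was 1.3, with 1 member below 0 and 46 (75.4%) above the PAP libraries without overlap, beside 12.5% of all genes. They took 0.202, 0.262 and 0.222% of reads in PAP + ATP libraries and 0.0739, 0.0995 and 0.0649% in PAP libraries; control libraries had 0.0484 to 0.190%. AT5G46490 (chromosome 5, 18850645 to 18853896) had 20.5, 38.3 and 32.8 CPM with PAP + ATP, against 3.56, 4.40 and 3.498 CPM with PAP. The lowest PAP + ATP library stood well above the highest PAP library, and the difference of 2.81 ± 0.31 had the smallest adjusted p of all genes together with AT5G46500 (0.000589 for both, limma). AT5G41750 (chromosome 5, 16693832 to 16699028) had 86.7, 172 and 66.96 CPM in PAP + ATP leaves and 12.5, 4.74 and 17.1 CPM in PAP leaves, a difference of 3.24 ± 0.52. WRR4, a receptor for white rust resistance, had 99.7, 127 and 58.7 CPM in PAP + ATP leaves and 16.03, 17.1 and 22.7 CPM in PAP leaves. The coiled-coil class moved the same way, with 7 of 19 tested higher (36.8%, beside 3.43% of all genes), 0 lower, a median of 1.01 and none below 0. Its RPP8, which recognises downy mildew, had 220, 190 and 197 CPM in PAP + ATP leaves and 103, 109 and 71.7 CPM in PAP leaves. These genes also form families of similar sequence, in which reads could be divided. The 29 calls were 4 without library 16, 5 without library 17, 10 without library 7, 11 without library 8, 17 without library 9 and 1 in either fit without LiCl libraries. The 7 of the coiled-coil class were 0 without library 16 or library 17, 2 without library 7 or library 8, 3 without library 9 and 0 in either fit without LiCl libraries.

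Neighbours in a cluster of such genes on chromosome 5 rose side by side; they were looked at after their values were seen, and the library kit does not mark strand. Of the 8 annotated loci from AT5G46450 to AT5G46530, all on the plus strand, 4 adjacent ones were called higher, beside 3.43% of all genes. The stretch was drawn around called genes, so calls within it follow from that choice and the count is only a description. RPS6 (AT5G46470, 18842553 to 18849741), a receptor for a bacterial effector, had 143, 201 and 160 CPM in PAP + ATP leaves, against 53.7, 62.9 and 32.7 CPM in PAP leaves, a difference of 1.78 ± 0.37. Next to it lie AT5G46490, described above, and AT5G46500 (18855955 to 18858552), which had 13.1, 19.9 and 16.99 CPM with PAP + ATP and 0.665, 1.04 and 1.77 CPM with PAP, 10.6-fold higher by the fit. AT5G46510 (18860234 to 18867015) had 23.5, 28.6 and 17.04 CPM in PAP + ATP leaves and 3.32, 4.15 and 5.38 CPM in PAP leaves. On the flanks the differences were smaller and not past the threshold, at 0.59 ± 0.54 for AT5G46450, 0.51 ± 0.42 for AT5G46460, 0.93 ± 0.35 for AT5G46520 and 0.07 ± 0.32 for AT5G46530. In ATP against control AT5G46500 differed by 2.13 and AT5G46490 by 1.29, both called, whereas RPS6 and AT5G46510 had 0.56 and 0.23.

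Among genes that rose, 22.5% had the W-box letters TTGACC, the binding site of WRKY factors, in the promoter window, against 14.6% of all tested and 9.74% of genes that fell. CGCGTT, recognised by the calmodulin-binding CAMTA factors, stood in 9.32% of genes that rose, 3.95% of all and 1.65% of genes that fell. The heat shock element GAANNTTC stood in 15.6% of genes that rose, 11.6% of all and 11.4% of genes that fell. The G-box CACGTG, which contains the letters ACGTG, stood in 10.6% of genes that rose, 9.37% of all and 6.6% of genes that fell. The evening element AAAATATCT of clock-controlled genes stood in 2.66% of genes that rose, 3.11% of all and 2.97% of those that fell. For the 29 TIR-NBS-LRR genes that rose the shares were 31% for GAANNTTC, 27.6% for TTGACC and 27.6% for CGCGTT. Among the 61 tested these shares were 29.5%, 13.1% and 18%, beside 11.6%, 14.6% and 3.95% of all genes. AT5G41750, one of the 12 largest rises, is shown with its one TTGACC, on the opposite strand, in capitals (chr5:16693582-16693881, plus strand); the window of AT5G46490 holds neither.
AT5G41750: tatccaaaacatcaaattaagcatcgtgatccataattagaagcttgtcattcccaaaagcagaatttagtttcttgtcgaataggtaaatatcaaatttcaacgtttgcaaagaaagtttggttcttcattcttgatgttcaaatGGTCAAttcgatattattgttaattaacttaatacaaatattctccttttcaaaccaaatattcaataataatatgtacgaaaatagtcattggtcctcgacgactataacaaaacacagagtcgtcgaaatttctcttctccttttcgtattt

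**Figure D2:**
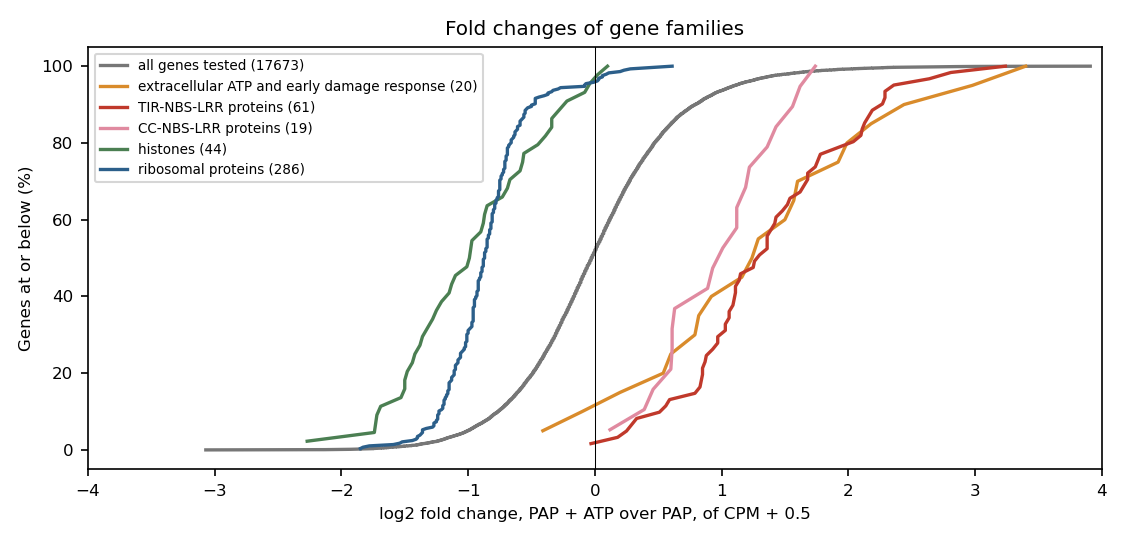
Share of genes at or below each log2 fold change of PAP + ATP over PAP (x, log2 of CPM + 0.5) in percent (y), for all 17673 genes tested and 5 gene groups with the number tested in brackets. The curves of ribosomal protein and histone genes lie left of that of all genes, with medians of -0.87 and -0.98, and those of the resistance genes and the extracellular ATP list lie right of it, with medians of 1.3, 1.01 and 1.26.

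The list of extracellular ATP and early damage response genes was higher in the same leaves. Of 20 tested, 9 (45%) rose past the threshold, beside 3.43% of all genes, with 0 lower, a median of 1.26 and 2 members below 0. MPK3, a kinase of the defence cascade, had 121, 163 and 140 CPM with PAP + ATP, against 57.2, 29.3 and 70.8 CPM with PAP, a difference of 1.5 ± 0.27 (limma adjusted p = 0.00869). RBOHD, the oxidase that makes the defence burst of reactive oxygen, had 163, 201 and 245 CPM in PAP + ATP leaves and 97.9, 77.4 and 93.9 CPM in PAP leaves. Neither gene overlapped between groups. CPK28, a calcium-dependent kinase, had 97.9, 145 and 55.1 CPM with PAP + ATP and 14.3, 11.7 and 27.1 CPM with PAP. The calmodulin-like TCH3 had 790, 1269 and 883 CPM with PAP + ATP and 243, 159 and 421 CPM with PAP. The other members past the threshold were PHI-1, TCH4, the transcription factor genes WRKY33 and WRKY40 and the kinase gene MPK11. For WRKY40 and MPK11 the groups overlapped: PAP + ATP library 18 (219 and 7.87 CPM) lay under PAP library 9 (224 and 11.4 CPM). LecRK-I.9, the receptor of extracellular ATP, had 251, 101 and 119 CPM in PAP + ATP leaves and 92.0, 46.2 and 48.0 CPM in PAP leaves; the groups did not overlap, but the difference of 1.29 ± 0.42 was not past the threshold (limma adjusted p = 0.0698). The 9 calls were 4 without library 16, 3 without library 17, 4 without library 7, 2 without library 8 and 0 in either fit without LiCl libraries.

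Genes of nitrate assimilation, a list written after values had been seen, held some of the clearest rises. Of 23 tested, 4 rose and 0 fell, beside 3.43% of all genes each way. The median was 0.65, beside -0.03 for all genes. In ATP against control 4 of the 23 were higher and 1 lower, beside 1.81% of all genes higher and 5.46% lower. NIA2, the main nitrate reductase (chromosome 1, 14158452 to 14161938), had 356, 589 and 453 CPM in PAP + ATP leaves, against 50.9, 70.4 and 81.2 CPM in PAP leaves, a difference of 2.77 ± 0.39 (limma adjusted p = 0.00328). NIA1, the second nitrate reductase, had 203, 465 and 275 CPM in PAP + ATP leaves and 34.9, 73.9 and 41.3 CPM in PAP leaves. UPM1, which makes the siroheme cofactor of nitrite reductase, had 54.2, 60.7 and 60.5 CPM in PAP + ATP leaves and 16.4, 30.2 and 17.9 CPM in PAP leaves. No overlap was seen in any of these or in BT2. Nitrite reductase NIR1 (0.53) and the glutamine synthetase gene GS2 (-0.14) were not past the threshold, nor was the nitrate transceptor NRT1.1 (-1.33). The count of 4 in PAP + ATP against PAP was 2 without library 17 or library 7, and 1 in either fit without LiCl libraries.

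Phosphate starvation genes did not move as one. Of 16 tested, 1 rose and 1 fell (6.25% each way, beside 3.43% of all genes), with a median of -0.37. SPX1, a sensor induced when phosphate is short, had 4.18, 3.78 and 4.12 CPM in PAP + ATP leaves and 8.80, 14.9 and 14.4 CPM in PAP leaves, a difference of -1.51 ± 0.31 (limma adjusted p = 0.0159). PHO2, the ubiquitin conjugase that limits phosphate uptake, had 77.7, 80.8 and 135.5 CPM in PAP + ATP leaves and 41.0, 39.7 and 31.8 CPM in PAP leaves, a difference of 1.34 ± 0.29. None of the 24 genes tested for apyrases, nucleoside transport and purine salvage or breakdown passed the threshold in limma, and their median was 0.11. Nearest to it were the allantoinase gene ALN, with 10.5, 5.92 and 5.73 CPM in PAP + ATP leaves and 3.99, 4.28 and 2.98 CPM in PAP leaves (limma adjusted p = 0.0543), and the adenine phosphoribosyltransferase gene APT3 (0.70 ± 0.22).

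Of the genes of PAP turnover and PAPS use, 1 of 12 tested (8.33%) passed the threshold, beside 6.86% of all genes. In this list and in those of sulfate and glucosinolate genes below, the single calls lie near that share. SAL1 had 107, 103 and 220 CPM in PAP + ATP leaves and 194, 157 and 180 CPM in PAP leaves; library 18 was above every PAP library and the other 2 below, and the difference was -0.39 ± 0.29 (limma adjusted p = 0.414). XRN2, XRN3 and XRN4 differed by 0.26 ± 0.38, 0.71 ± 0.34 and 0.67 ± 0.32 and overlapped between groups; the sign of XRN2 turned with array weights. APK3, a kinase that makes the sulfate donor PAPS, was the one that passed: 5.80, 4.602 and 5.26 CPM in PAP + ATP leaves, against 8.80, 10.4 and 9.54 CPM in PAP leaves, a difference of -0.82 ± 0.22 (limma adjusted p = 0.0368). ZAT10, listed as STZ, a zinc finger repressor and marker of PAP signalling, had 217, 184 and 225 CPM with PAP + ATP inside a PAP range of 56.5 to 326 CPM, and the sign of its difference turned without library 8. DREB2A, a drought and heat regulator, differed by 1.13 ± 0.48 with overlap. APX2, an ascorbate peroxidase induced by high light, had 0.396 to 0.957 CPM in PAP + ATP leaves and carries no values for PAP leaves, so it was not tested. Of 15 sulfate assimilation genes 1 rose, the ATP sulfurylase APS3 with 72.9, 68.8 and 60.7 CPM in PAP + ATP leaves and 33.7, 38.4 and 17.2 CPM in PAP leaves. Among 19 genes of aliphatic glucosinolate synthesis, sulfur compounds against herbivores, the glucosyltransferase gene AT2G31790 fell (-1.16 ± 0.34) and the median was -0.22; of 12 for indole glucosinolates CYP81F2 rose.

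Salicylic acid and immunity genes had 4 members higher (30.8%) and 1 lower (7.69%) of 13 tested, beside 3.43% of all genes each way, with a median of 0.65. The same 3.43% applies to the lists that follow, where 1 or 2 calls decide the share. SARD1, a regulator that switches on salicylic acid synthesis, had 10.7, 16.4 and 17.1 CPM in PAP + ATP leaves, against 5.63, 1.62 and 3.28 CPM in PAP leaves. CBP60G, its relative with the same role, had 28.4, 37.1 and 23.9 CPM in PAP + ATP leaves and 9.78, 4.24 and 15.7 CPM in PAP leaves. Neither overlapped between groups. PAD4 and EDS1, partners that act after TIR-class receptors, differed by 1.53 ± 0.39 and 1.33 ± 0.39. The lower member was the antimicrobial protein gene PR5, with 6.55, 17.8 and 8.55 CPM in PAP + ATP leaves and 29.4, 46.0 and 18.2 CPM in PAP leaves. The 4 rises became 0 without library 16, library 17 or library 8, and 1 without library 7. For ethylene, 2 of 13 rose: the transcription factor gene EIN3 (0.77 ± 0.19) and the synthase gene ACS6 (1.13 ± 0.29). Early auxin response genes had 2 of 11 higher, the auxin repressor gene IAA19 and GH3.3, whose product conjugates auxin, and 1 lower, SAUR9, whose groups overlapped. The abscisic acid list had CYP707A1, which degrades the hormone, lower (-1.62 ± 0.42) and none higher of 27, and none of the 26 jasmonate genes was called, with a median of 0.34. In the list of senescence and sugar status the asparagine synthetase gene ASN1 (2.29 ± 0.58) and the dark-induced SEN1 (AT4G35770, 2.74 ± 0.76) rose, and 1 of 16 lay below 0. Of 17 clock genes TOC1 was called, with 63.5, 44.0 and 26.6 CPM in PAP + ATP leaves and 15.9, 14.1 and 27.8 CPM in PAP leaves, so that library 18 lay under PAP library 9; 15 were above 0 and the median was 0.72.

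No member was called by limma in the lists of photosynthesis (23 tested, median -0.25), plasma membrane aquaporins (13, median -0.68), flavonoid synthesis (13, median -0.33) or heat shock and unfolded protein response (13, median 0.26). Of the aquaporins 12 were below 0, and PIP1A had 391, 250 and 246 CPM in PAP + ATP leaves and 839, 596 and 509 CPM in PAP leaves, not overlapping but short of the threshold (limma adjusted p = 0.0714). Markers of other cell types were followed as well. The 8 vascular markers summed to 632, 532 and 744 CPM in PAP + ATP leaves, against 475, 329 and 343 CPM in PAP leaves. Of these 2 rose, the phloem sucrose carrier SUC2 (1.18 ± 0.24) and the proton pump HA3 (0.98 ± 0.28), while SWEET11 (-0.21), SWEET12 (-0.77) and XCP1 (-0.72), of phloem and xylem, did not pass. None of 6 guard cell, 4 epidermis, 3 myrosin cell and 1 root marker tested was called; PDF1 and the root transporter gene NRT2:1 carry no values for PAP leaves. PAP + ATP and PAP leaves did not overlap in the vascular sum, and its part in the rises and falls of the families above was not tested.

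Whether the response to ATP differed when PAP was fed was asked by the difference of PAP + ATP against PAP and ATP against control, which share no library. No gene of 17605 passed the threshold in limma (0%, smallest adjusted p 0.0789, 2189 at an unadjusted p under 0.05), edgeR called 0 and DESeq2 158. Without control library 1 limma called 310 and without PAP library 9 it called 3. For a typical gene the 95% interval of this difference reached 0.92 either way on the log2 scale, so smaller differences could be missed. In ATP against control 319 genes were higher (1.81%) and 964 lower (5.46%) of 17667, or 7.26% together. Leaving out single libraries lowered that total to 784 (control 1), 530 (control 2), 572 (ATP 4) or 286 (ATP 5), and the fit without LiCl libraries to 85. Of the genes called in PAP + ATP against PAP, 95 were higher and 139 lower in both and 1 was opposite. The genes that shared a direction were 19.4% of the calls in PAP-fed leaves and 18.3% of those without PAP. Across genes, which are not independent replicates, 86.2% of those called with PAP had the same sign without it, beside 63.1% of all genes. The 12 falls include the opposite gene, AT1G22470, which had 5.14, 2.55 and 6.15 CPM with PAP + ATP and 20.8, 11.6 and 24.7 CPM with PAP but differed by 1.87 in ATP against control.

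Several genes passed the threshold both with and without PAP. BT2 differed by 3.25 with PAP and 2.95 without, PP2-B13 by 3.83 and 2.95, PHI-1 by 3.40 and 3.02, SPX1 by -1.51 and -1.58, and GAMMA-H2AX by -2.27 and -1.28. Some list medians lay further from 0 with PAP than without it: -0.87 against -0.20 for ribosomal proteins, -0.98 against -0.48 for histones, 1.3 against 0.23 for the TIR-NBS-LRR class and 1.26 against 0.17 for the extracellular ATP list. Others lay nearer to 0 with PAP: -0.22 against -1.04 for aliphatic glucosinolates, 0.21 against -0.62 for indole glucosinolates and 0.18 against 0.56 for abscisic acid. For all genes the medians were -0.03 and -0.16. With no gene past the threshold in limma's test of the difference, these medians are a description. The jasmonate list had a median of 0.34 with PAP and -0.59 without, and the salicylic acid list 0.65 and -0.29. The control libraries were the least even, with an SD of 0.40 for the median gene on the log2 scale.

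**Figure D3:**
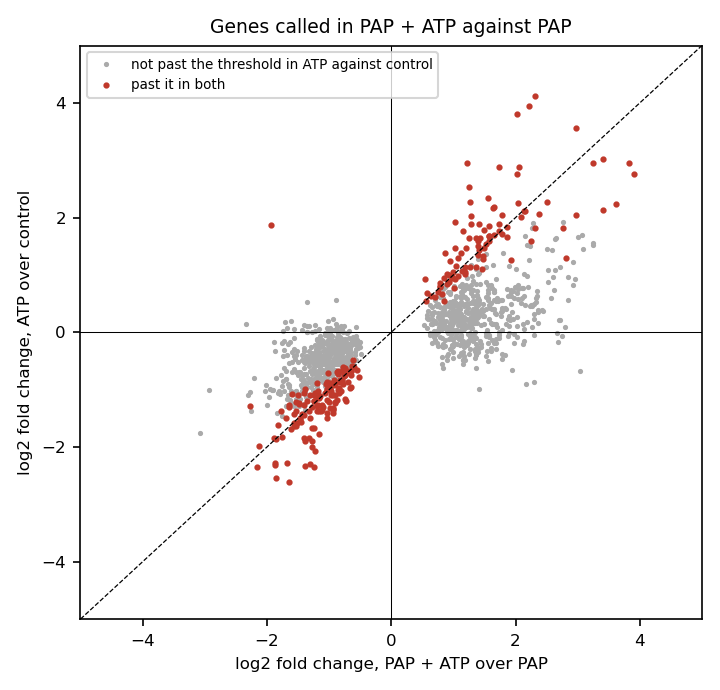
log2 fold changes of the genes called in PAP + ATP against PAP (x), set against those in ATP against control (y), each point a gene; red points passed the threshold in both and the dashed line marks equal change. Of the 1207 genes tested in both, 1041 have the same sign, and 1 gene past both thresholds lies at upper left.

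With LiCl, which inhibits SAL1, PAP + ATP + LiCl against PAP + LiCl gave 6 genes higher (0.034%) and 14 lower (0.0794%) of 17638, or 0.113% together. That total was 4 without library 14, 7 without library 15, 4 without library 19 and 0 without library 20. The difference of the ATP effect without and with LiCl was called for 5 genes of 17541 (0.0285%), 4 upward (0.0228%) and 1 downward (0.0057%). The largest was that of ABCC6, an ABC transporter gene of the multidrug resistance class, which differed by 1.62 ± 0.50 in PAP + ATP against PAP (limma adjusted p = 0.0571, not past the threshold) and by -3.22 in PAP + ATP + LiCl against PAP + LiCl. AT5G60310, a lectin receptor kinase gene, differed by 1.53 in PAP + ATP against PAP and by -2.60 in PAP + ATP + LiCl against PAP + LiCl. Its annotated start overlaps the end of LecRK-I.9 on the same strand, and reads from that stretch cannot be told apart. The histone gene AT3G53730 had 12.1, 16.7 and 19.4 CPM with PAP + ATP and 33.0, 46.1 and 61.6 CPM with PAP, a difference of -1.5 without LiCl, against 0.47 with it. The count of 5 was 0 without library 17, 25 without library 18, 3 without library 7 and 2 without library 8, and in the LiCl groups 1 without library 19, 20, 14 or 15, 8 without library 21 and 10 without library 13. The median of the TIR-NBS-LRR class was 0.56 with LiCl, that of ribosomal proteins -0.26 and that of histones 0.15. GAMMA-H2AX, at 2.02 to 7.35 CPM in PAP + ATP leaves and 17.8 to 24.3 CPM in PAP leaves, differed by -0.37 with LiCl.

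**Figure D4:**
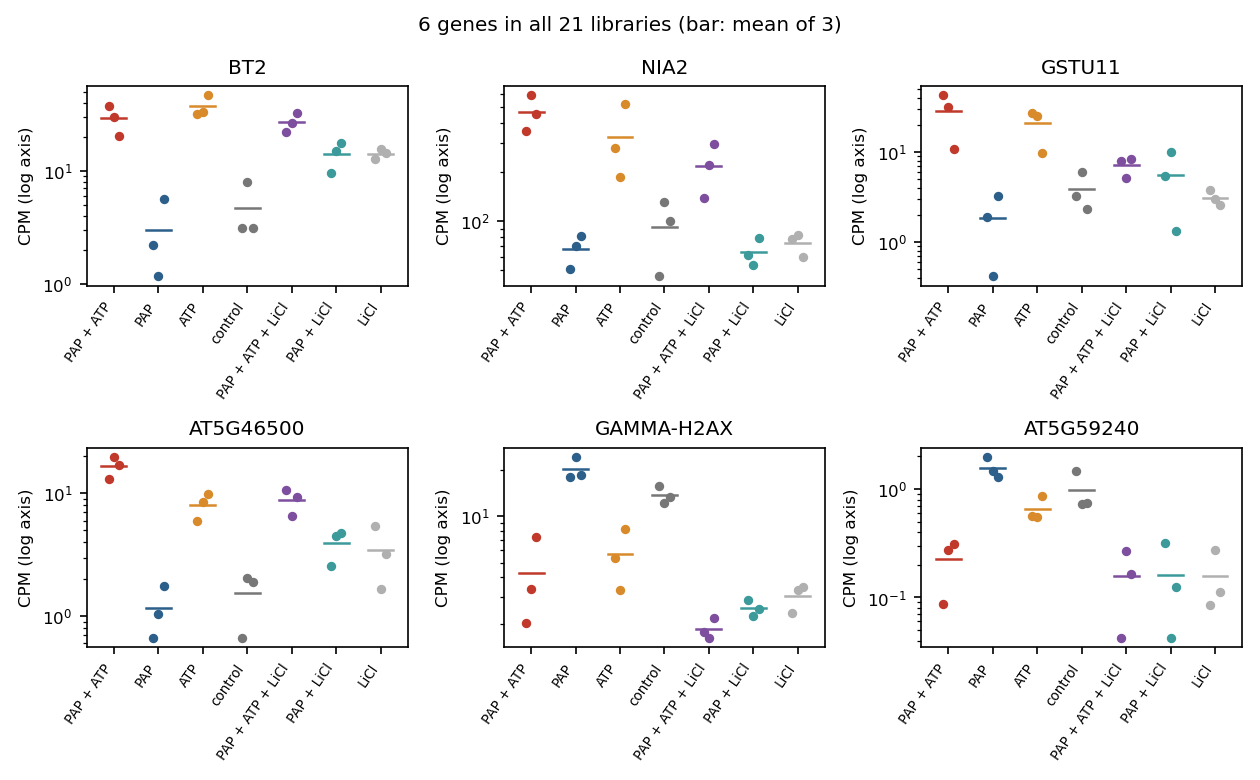
CPM on a log axis (y) of 6 genes in each of the 7 feeding groups (x), with a point for each of 3 libraries and a bar at their mean. BT2, NIA2, GSTU11 and AT5G46500 are higher in PAP + ATP than in PAP leaves and in ATP than in control leaves. GAMMA-H2AX and AT5G59240, which lies near the floor, are lower in PAP + ATP than in PAP leaves. In ATP against control GAMMA-H2AX is lower too (log2 fold change -1.28, limma adjusted p = 0.031), and AT5G59240 is not called (-0.33). With LiCl both of the lower genes are low with and without ATP.

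**Figure D5:**
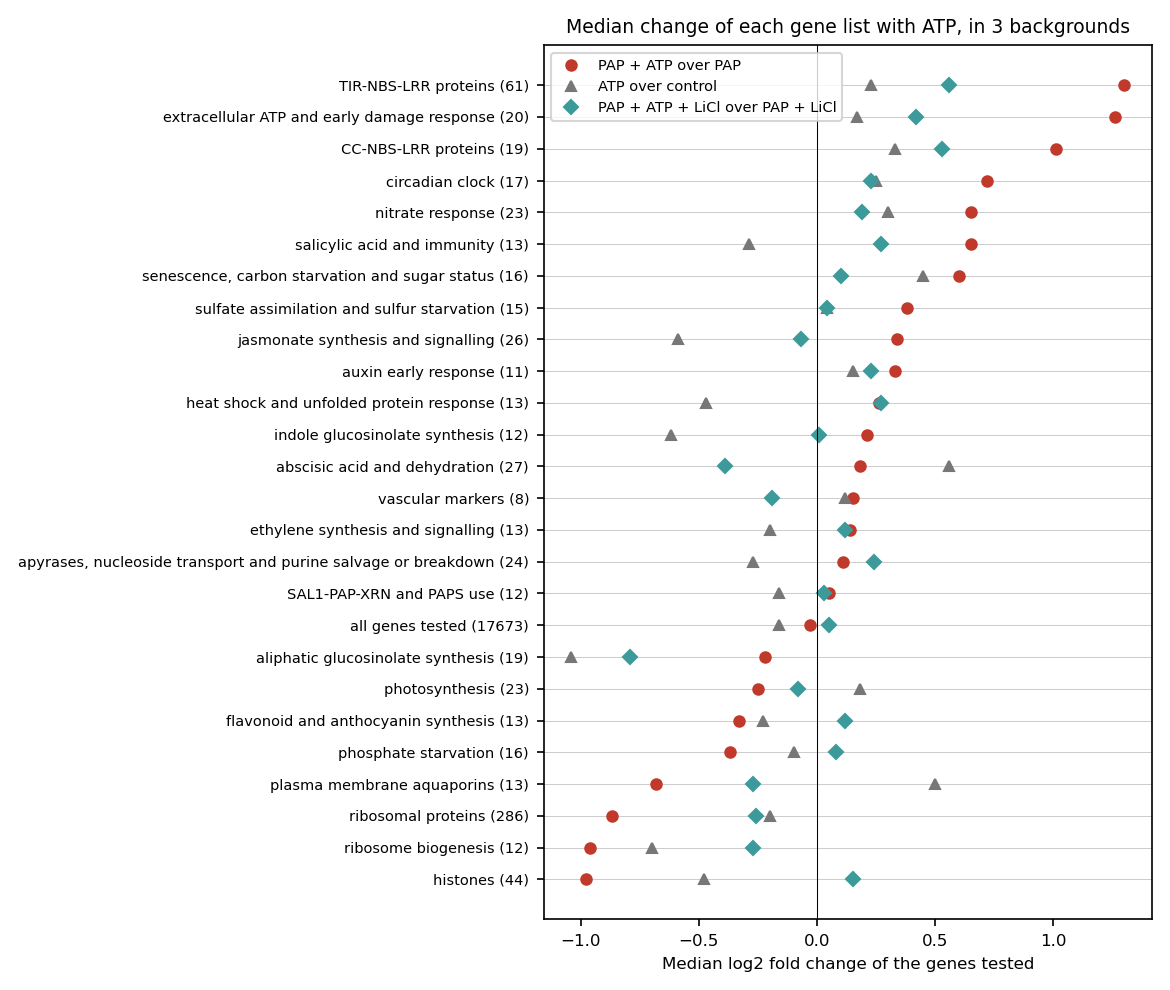
Median log2 fold change with ATP (x) of each gene list (y, with the number tested in PAP + ATP against PAP) in PAP-fed leaves (circles), without PAP (triangles) and in leaves fed PAP + LiCl (diamonds). In PAP-fed leaves the medians run between -0.98 for histones and 1.3 for the TIR-NBS-LRR class, with all genes at -0.03.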

How the data were processed

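Polyadenylated RNA of 21 libraries, 3 in each of 7 feeding groups, was sequenced; 6 libraries carry the comparison of PAP + ATP with PAP and the others supply the spread and the 2 further ATP comparisons. Per the submitters' processing notes the authors used Subread and featureCounts with TAIR10; versions are not given in the sources used here. Per the labels' protocols libraries were made with the TruSeq V2 kit, which does not mark strand, so overlapping and antisense genes cannot be told apart. The authors deposited CPM, read counts scaled to each library's total, for 21156 loci, of which 20952 (99%) matched TAIR10.1. Dividing by the smallest step returned whole reads for 100% of values in every library (tolerance 1e-06). Columns name the group but no replicate of the labels, so libraries go by column number. Loci without values in PAP + ATP (1352) or PAP (1447) leaves were not tested.

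The comparisons used limma 3.58.1 under R 4.3.3 (trend, two-sided, 1 mean per group) on log2(CPM + 0.5) of all 21 libraries, keeping genes that reached 1 CPM in 3 or more of them, with Benjamini-Hochberg adjustment over all genes and a threshold of 0.05. The method was run on simulated data in which each gene had the same spread in all groups. Such data cannot show how pooling with the more even LiCl groups affects the calls. Alternatives were other added constants, filters, median-of-ratios scaling, array weights, fewer libraries, each library left out, and edgeR 4.0.16 and DESeq2 1.42.0 on the recovered reads, which called 1378 and 2536 genes.

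The 12 largest rises and falls were those past the threshold with a mean of at least 5 CPM over the 6 libraries and no overlap. The 3 smallest p of each list, the 4 smallest p each way of each difference, and SAL1, XRN2, XRN3, XRN4, APX2, ZAT10, DREB2A and LecRK-I.9 were named too; list members beyond these, the chromosome 5 neighbours and the product-name and nitrate lists were chosen after their values were seen. The members and all lists were chosen with earlier results of these data known. Of 24 lists with 373 members, 356 were in the table. Promoters were cut from TAIR10.1 as 250 bases before to 50 after each annotated gene start; 17540 of 17673 genes tested had one.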

Additional observations from a re-analysis of the deposited data

Results flagged for a closer look

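The effect of ATP in PAP-fed leaves differed between leaves without and with LiCl for 5 genes, by limma's test of that difference. The log2 difference, the effect without LiCl minus the effect with it, was 4.83 for ABCC6 (AT3G13090), 4.30 for AT1G51770, a Core-2/I-branching glucosaminyltransferase family gene, 4.27 for AT5G61800, a pentatricopeptide repeat gene, 4.13 for AT5G60310, a lectin receptor kinase gene, and -1.97 for the histone gene AT3G53730. AT5G61800 had 11.1, 10.8 and 16.6 CPM in PAP + ATP leaves and 0.587, 0.665 and 3.20 CPM in PAP leaves, and the effect with LiCl was -1.30. AT1G51770 had 5.19, 5.29 and 6.98 CPM in PAP + ATP leaves and 0.743, 0.332 and 2.87 CPM in PAP leaves, and the effect with LiCl was -2.26.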

How the results depend on the processing

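No paired analysis was possible because the columns carry no replicate number of the labels. The counts called in PAP + ATP against PAP changed most with the libraries that entered. The fits of 6 and of 12 libraries return the same log2 fold change, so they cannot test its sign, and each kept 4 of the named calls. None of the 64 genes past the threshold that the naming rule chose changed sign. Some that were not past it did, XRN2 with array weights and ZAT10 (STZ) without library 8 among them. With the 6 libraries alone 6 genes were called (5 higher, 1 lower), with 0 of the ribosomal protein, histone, ribosome biogenesis, coiled-coil NBS-LRR, extracellular ATP and salicylic acid members and 1 each of the TIR-NBS-LRR and nitrate members. The 12 libraries without LiCl gave 10 genes (9 higher, 1 lower), the same list counts, and 85 genes in ATP against control. Leaving out 1 library at a time gave 98 to 2028 genes in all, 78 to 719 higher and 20 to 1309 lower. The same gave 1 to 112 ribosomal protein, 5 to 22 histone and 0 to 9 ribosome biogenesis members lower. It gave 4 to 25 TIR-NBS-LRR, 0 to 6 coiled-coil NBS-LRR, 2 to 11 extracellular ATP, 0 to 3 salicylic acid and 2 to 4 nitrate members higher. ATP against control ran between 286 and 1266 genes, PAP + ATP + LiCl against PAP + LiCl between 0 and 16, the difference with and without PAP between 0 and 310, and that without and with LiCl between 0 and 25. A fit that drops a library leaves 2 in that group, whose spread is pooled with that of the other groups.

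Array weights, whose fitting ended with a convergence warning, gave 723 genes (363 higher, 360 lower), 45 ribosomal protein, 15 histone, 3 coiled-coil NBS-LRR and 1 salicylic acid member, 2988 genes in ATP against control, 1440 in PAP + ATP + LiCl against PAP + LiCl and 38 for the difference without and with LiCl. Without libraries 18 and 8 together, chosen after seeing the data, 382 genes were higher, 47 ribosomal protein and 14 histone genes lower, 0 salicylic acid members higher and 2 genes called in the difference without and with LiCl. DESeq2 called 2536 genes (1339 higher, 1197 lower), 177 ribosomal protein and 44 TIR-NBS-LRR members, 136 genes in PAP + ATP + LiCl against PAP + LiCl, 158 for the difference with and without PAP and 121 for that without and with LiCl. edgeR called 811 genes in ATP against control and 18 for the difference without and with LiCl. Median-of-ratios scaling called 911 genes higher and 21 for that difference, an added 0.1 or 2 CPM gave 2 or 13 for it, and no filter 10. A mean of at least 5 CPM gave 3 ribosome biogenesis and 4 coiled-coil NBS-LRR members, 1 gene for the difference with and without PAP, 3 for that without and with LiCl, 845 in ATP against control and 3 in PAP + ATP + LiCl against PAP + LiCl. The cause of these shifts was not tested. With 3 libraries a group, the 95% interval of the median gene's log2 fold change reached 0.65 either way.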
